A study of Mus musculus with 9 samples.

Results

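The genes described here encode the conjugating enzymes of phase II metabolism in mouse liver, the UDP-glucuronosyltransferases (Ugt), the cytosolic sulfotransferases (Sult) and the glutathione S-transferases (Gst). Members were chosen by name, as the protein-coding genes whose symbols begin with Ugt and a digit of 1 to 3, with Sult and any digit, or with Gst, a letter and a digit. This gave 64 of the 54532 genes in the deposited table, 21 Ugt, 21 Sult and 22 Gst genes, among 22046 protein-coding genes. The families were divided into Ugt1a, Ugt2 (Ugt2a and Ugt2b), Ugt3a, Sult1, Sult2, the remaining Sult genes, the alpha class (Gsta), the mu class (Gstm) and the remaining Gst genes.

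Phase II enzymes attach a polar group to drugs, hormones and breakdown products, which are then excreted in bile or urine. Ugt proteins sit in the endoplasmic reticulum and transfer a sugar, most often glucuronic acid from UDP-glucuronic acid. Sult proteins are cytosolic and transfer sulfate from the donor PAPS, and most Gst proteins join glutathione to reactive, electron-poor molecules, lipid peroxidation products among them.

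The tissue was liver of wild-type male C57BL/6J mice, read as 9 poly(A) RNA libraries in 3 groups of 3. One group, called 326E livers below, was fed CDAA-HFD, a high-fat diet that lacks choline and replaces protein with amino acids, which the labels give as the inducer of metabolic dysfunction-associated steatohepatitis, and received 30 mg/kg of 326E for 6 weeks. The second, vehicle livers, had the same diet with vehicle, and the third, chow livers, had normal chow with vehicle, so no group had 326E on chow. The series title calls 326E an enedioic acid analogue that targets ATP citrate lyase (ACLY) and PPARα. Whether the 3 libraries of a group came from 3 animals is not stated in the labels, so p-values measure the spread between these samples, which may be technical.

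Assigned reads ranged from 13275888 to 17058316 per library. Hepatocyte markers dominated all 9 libraries, with summed levels of 27110 to 36800 FPKM in 326E, 30660 to 45630 FPKM in vehicle and 47270 to 49200 FPKM in chow livers. In a mixed tissue, fewer hepatocytes and less RNA per hepatocyte cannot be told apart. Libraries with transcripts of exocrine pancreas were found in 2 groups. Prss2, which encodes a trypsinogen, stood at 178 FPKM in 326E replicate 1 and at 1494 FPKM in chow replicate 3, and at no more than 0.951 FPKM in the other 7. The overall counts of called members are therefore also given without these 2 libraries, and so are the family and list counts that moved.

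In the text, a level is in FPKM, reads scaled to gene length and sequencing depth, as deposited, and a difference is between group means of log2(FPKM+1), with its standard error after ±. This scale understates the change of genes at low levels. A gene was called when limma's Benjamini-Hochberg adjusted p, over all 13737 tested genes, was under 0.05. Of the 64 members, 44 reached the minimum of 0.5 FPKM in at least 3 libraries and were tested. They were 16 Ugt, 8 Sult and 20 Gst genes. The other 20 were below it, and 9 of those had no read in any library. These 9 were Ugt2a1, Ugt2a2, Sult1c1, Sult2a3, Sult2a5, Sult2a6, Sult3a1, Sult3a2 and Gstt4.

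The summed level of the members was 2972 ± 231 FPKM in 326E livers, 3152 ± 210 FPKM in vehicle livers and 6469 ± 625 FPKM in chow livers (SD, n = 3 each). Their share of the assigned reads was 0.695 to 0.764% in 326E livers, 0.734 to 0.752% in vehicle livers and 1.004 to 1.21% in chow livers. Both groups on CDAA-HFD thus lay below chow in every library, and their ranges met each other. Gst genes made up the largest part of the sum in all 3 groups, with 1355 ± 71 FPKM in 326E, 1558 ± 104 FPKM in vehicle and 3106 ± 128 FPKM in chow livers. The chow sums of Gst genes and of all members hold 602 FPKM of Gstp3 in chow replicate 1. In chow replicates 2 and 3, Gstp3 had 17.9 and 15.5 FPKM. The Ugt sum was 1259 ± 208 FPKM in 326E, 1140 ± 126 FPKM in vehicle and 2612 ± 518 FPKM in chow livers, and the Sult sum 358 ± 93 FPKM in 326E, 454 ± 51 FPKM in vehicle and 751 ± 42 FPKM in chow livers.

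**Figure D1:**
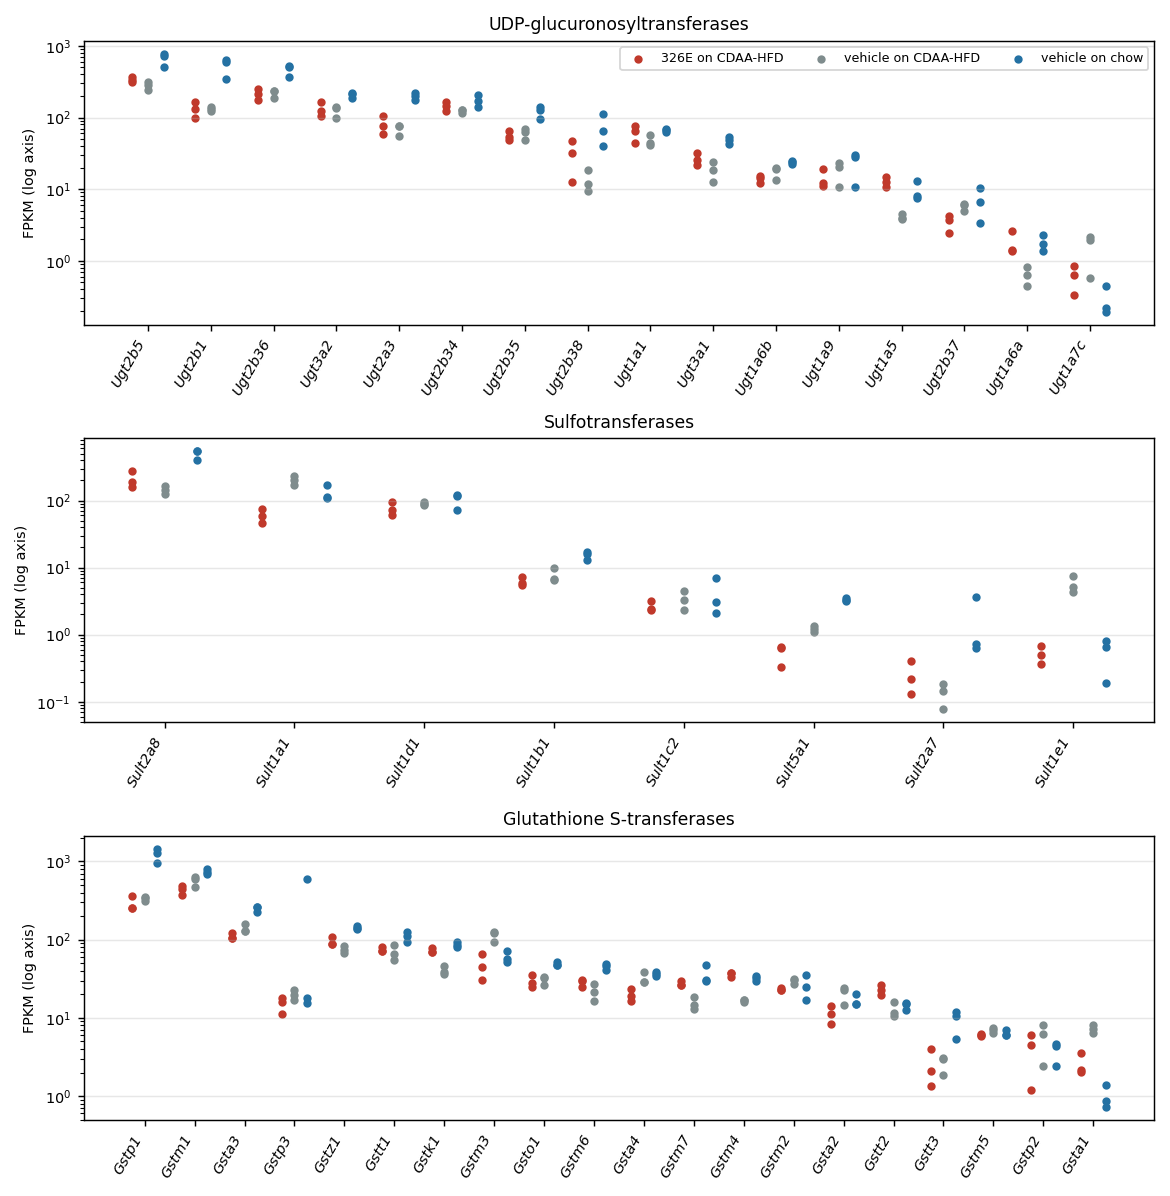
FPKM (log axis) of the 44 tested members in each of the 9 libraries, in panels for Ugt, Sult and Gst genes ordered by their chow mean. Points of 326E, vehicle and chow livers stand side by side for each gene; most high-level Ugt2, Sult2 and Gst genes have their chow points on top, while Sult1e1 and Gsta1 have their vehicle points on top.

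Called members were mostly lower on the diet. In vehicle against chow livers, 5 of the 44 tested members were called higher and 26 lower, against a background of 41.6% of all tested genes called, 20.8% in each direction. Their median difference was -0.75, beside -0.04 over all tested genes. The groups did not overlap for 28 members that were lower and 5 that were higher, where 27.0% and 24.9% of all tested genes had no overlap in those directions. In 326E against vehicle livers, 6 members were called higher and 6 lower, with 11.5% of all tested genes called, 4.96% higher and 6.5% lower. The median of the members was -0.12, beside -0.02 over all tested genes. The groups did not overlap for 7 members that were higher and 11 that were lower, beside 14.8% and 18.2% of all tested genes. In 326E against chow livers, 2 members were called higher and 21 lower, with 26.8% of all tested genes called, 14.4% higher and 12.5% lower, and the median was -0.67, beside -0.02. Here 2 members were higher and 24 lower without overlap, beside 22.4% and 22.6% of all tested genes. These comparisons share libraries, so their values are set side by side and not correlated.

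Calls were fewer, among members and among all genes, without the 2 libraries that held pancreatic transcripts. In vehicle against chow, 2 members were then higher and 24 lower, with 33.7% of all tested genes called. Ugt1a1 joined the lower members, and the calls of Gstm3, Gstt1, Sult1a1, Ugt1a6b, Ugt1a7c and Ugt2b34 ended (adjusted p = 0.0613 to 0.132). In 326E against vehicle, 4 members were higher and 4 lower, with 5.86% of all tested genes called, and Gsta4, Gstm3, Gstm7 and Ugt1a6a no longer passed (adjusted p = 0.0622 to 0.0991). In 326E against chow, 1 was higher and 10 lower, with 12.9% of all tested genes called. The 12 calls that ended there were those of Gsta1, Gsta4, Gstm1, Gstm6, Gsto1, Gstt1, Gstt3, Gstz1, Ugt1a6b, Ugt2b5, Ugt3a1 and Ugt3a2 (adjusted p = 0.0537 to 0.235).

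The deposited FPKM are already scaled between libraries, and that scaling bears on the counts of the diet comparisons. With values scaled to total assigned reads, the median of all tested genes moved from -0.04 to 0.25 in vehicle against chow and from -0.02 to 0.24 in 326E against chow. The members then gave 8 higher and 20 lower calls in vehicle against chow, and 4 higher and 14 lower calls in 326E against chow. Of all called genes, 84.1% were then higher in vehicle against chow livers, against 49.97% with the deposited scaling, and 86.9% against 53.5% in 326E against chow. Scaling to total reads ended the diet calls of Gsto1, Gstt1, Ugt1a6a, Ugt1a6b, Ugt2b34 and Ugt3a2 (adjusted p = 0.0592 to 0.831). The 326E against chow calls it ended were those of Gstm1, Gstm6, Gstt1, Gstz1, Ugt1a6b, Ugt3a1 and Ugt3a2 (adjusted p = 0.0514 to 0.312). Quantile normalization ended the diet calls of Gstt1, Ugt1a6b, Ugt1a7c, Ugt2b34, Ugt2b36 and Ugt3a2 (adjusted p = 0.0501 to 0.846) and the 326E against chow calls of Gstm1, Gstm6, Gstt1, Gstz1, Ugt2b36, Ugt2b5 and Ugt3a2 (adjusted p = 0.0532 to 0.669). Neither scaling ended a call in 326E against vehicle. With only vehicle replicate 2 kept of its group, the diet calls of Gstm3, Sult1a1, Sult2a7, Ugt1a6a, Ugt1a6b, Ugt2b34 and Ugt2b38 ended (adjusted p = 0.0938 to 0.212), as did the calls of Gsta1, Gsta4, Gstm3, Gstm7, Sult5a1, Ugt1a5 and Ugt1a6a in 326E against vehicle (adjusted p = 0.0528 to 0.327).

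**Figure D2:**
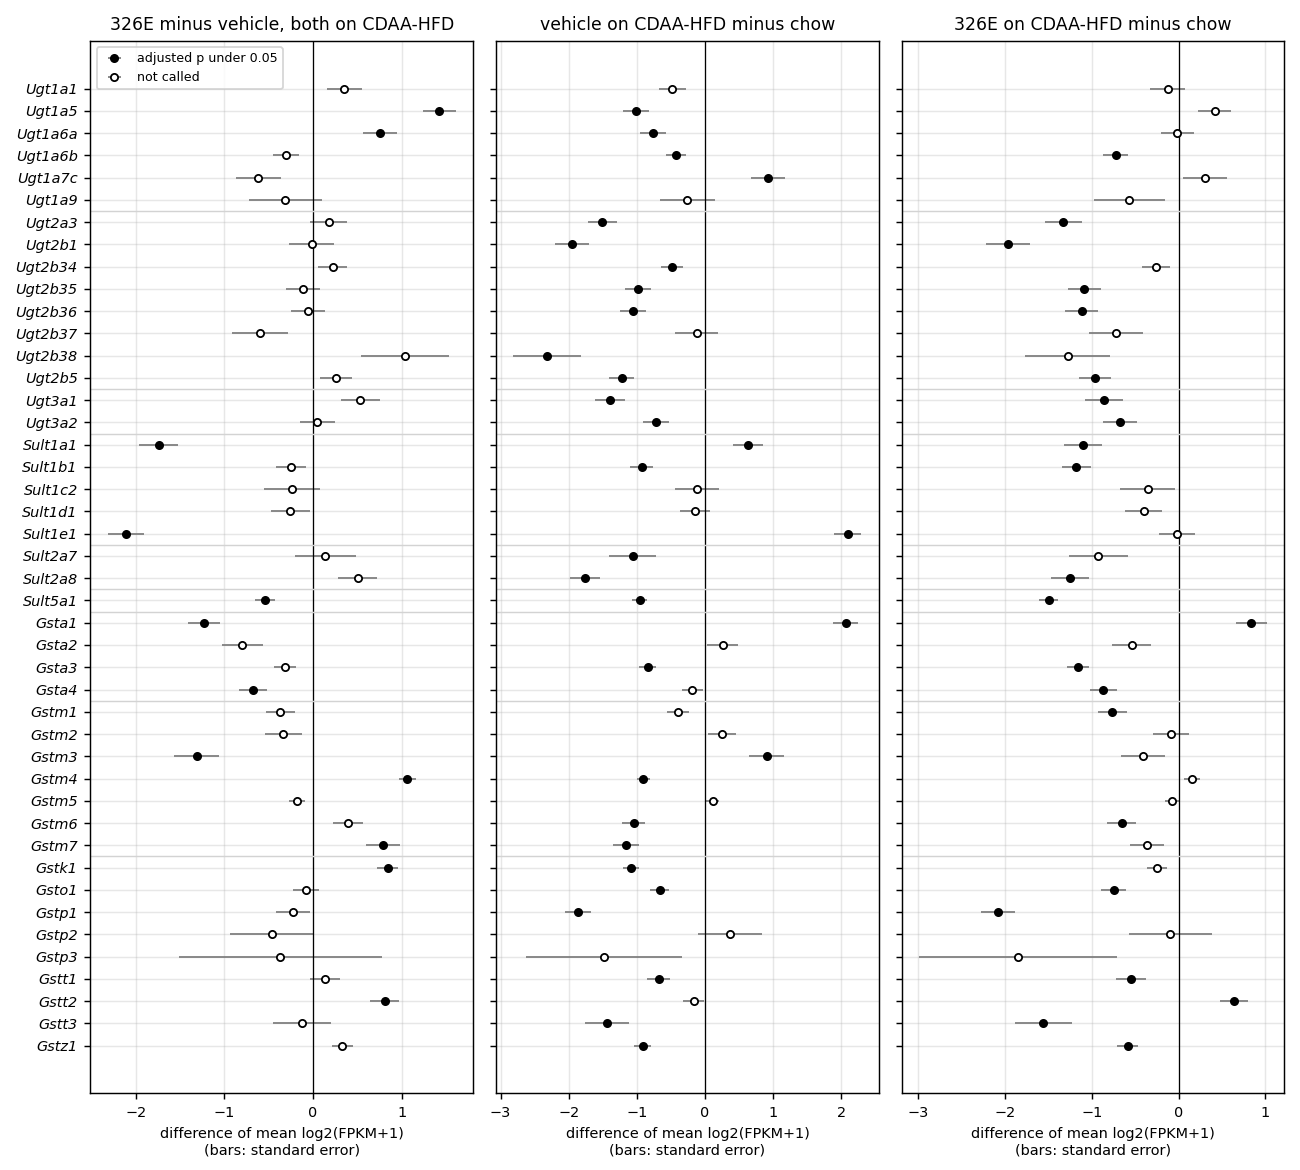
Differences of mean log2(FPKM+1) with standard errors for the 44 tested members, grouped by family, in panels for 326E minus vehicle, vehicle minus chow and 326E minus chow. Filled points were called; in the panels against chow most filled points lie below 0, with Sult1e1 at 2.09 and Gsta1 at 2.06 in vehicle minus chow on the opposite side.

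The 9 Ugt1a genes lie on chromosome 1 as one locus in which each gene has its own first exon and all share the last exons. The starts are shown here because they lie in the first exons, where the genes differ, though Ugt1a6a and Ugt1a6b differ little there. The first 60 coding bases of Ugt1a1, Ugt1a5 and Ugt1a6a, from GENCODE vM21 transcripts on GRCm38 (mm10), follow, with capitals at the 53 positions where the 3 genes are not all alike.
Ugt1a1: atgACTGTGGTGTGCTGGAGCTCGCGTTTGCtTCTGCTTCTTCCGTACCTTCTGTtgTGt
Ugt1a5: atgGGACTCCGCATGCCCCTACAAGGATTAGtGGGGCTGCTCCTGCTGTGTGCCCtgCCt
Ugt1a6a: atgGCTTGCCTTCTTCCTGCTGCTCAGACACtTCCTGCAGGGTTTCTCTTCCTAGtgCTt
Between 50.3 and 60.6% of the exonic bases of each Ugt1a gene lie in other members, and how reads there were counted is not given in the sources used here. A level of a Ugt1a gene is therefore uncertain in that part. Of the 100-base windows of their transcripts, 42.8% of Ugt1a1, 36.9% of Ugt1a5, 49.6% of Ugt1a6a and 29.1% of Ugt1a6b occur in no other gene. Ugt1a6a and Ugt1a6b are near copies, so their levels are uncertain in the first exons too.

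Ugt1a genes showed both directions. Of 9 members, 6 were tested. In vehicle against chow, 1 was higher and 3 lower, where 41.6% of all tested genes were called. In 326E against vehicle, 2 were higher and 0 lower, where 11.5% of all tested genes were called. These counts were 0 and 3, and 1 and 0, without the libraries with pancreatic transcripts. The Ugt1a sum was 106 ± 23 FPKM in 326E, 89.9 ± 13.4 FPKM in vehicle and 125 ± 10 FPKM in chow livers (SD, n = 3 each). Ugt1a1 (ENSMUSG00000089960, chromosome 1, 88211959 to 88218997, plus strand), the enzyme that conjugates bilirubin, was the most abundant member. It had 44.4, 65.7 and 77.4 FPKM in 326E livers, 41.9, 44.4 and 57.4 FPKM in vehicle livers and 69.5, 67.6 and 62.8 FPKM in chow livers. Its chow libraries lay above all vehicle libraries, but the difference of -0.48 ± 0.20 did not pass (adjusted p = 0.0807), nor did 0.35 ± 0.20 for 326E against vehicle (adjusted p = 0.28).

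Ugt1a5 (ENSMUSG00000089943, chromosome 1, 88166012 to 88218997), another first-exon variant, was low in vehicle livers alone. It read 10.6, 12.6 and 14.9 FPKM in 326E livers, 3.996, 3.80 and 4.43 FPKM in vehicle livers and 8.09, 12.8 and 7.44 FPKM in chow livers. The vehicle libraries lay below every other library, and 326E and chow libraries overlapped. Ugt1a5 rose by 1.42 ± 0.19 with 326E against vehicle (adjusted p = 0.00339), fell by 1.01 ± 0.19 in vehicle against chow (adjusted p = 0.00261), and differed by 0.42 ± 0.19 between 326E and chow (adjusted p = 0.135).

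Ugt1a6a (ENSMUSG00000054545, chromosome 1, 88134809 to 88218997) and Ugt1a6b are near copies that conjugate small phenols, and their coding sequences are 98.4% identical. Ugt1a6a had 1.40, 2.63 and 1.35 FPKM in 326E, 0.638, 0.810 and 0.444 FPKM in vehicle and 2.28, 1.74 and 1.35 FPKM in chow livers. Vehicle libraries were again the lowest, with differences of 0.75 ± 0.19 for 326E against vehicle (adjusted p = 0.0366) and -0.77 ± 0.19 for vehicle against chow (adjusted p = 0.0113). The diet call of Ugt1a6a ended with values scaled to total reads (adjusted p = 0.0592). It also ended when vehicle replicate 2 alone stood for its group (adjusted p = 0.166). The call with 326E was lost without any 1 of 326E replicates 1, 2 and 3 and of vehicle replicates 1 and 3 (adjusted p = 0.0551 to 0.109). Ugt1a6b had 14.3, 12.1 and 15.3 FPKM in 326E livers, 13.6, 19.0 and 19.98 FPKM in vehicle livers and 24.5, 22.1 and 24.0 FPKM in chow livers. It was lower in vehicle than in chow livers, by -0.42 ± 0.15 (adjusted p = 0.0456), a call that ended without any 1 of 7 libraries, all but 326E replicate 2 and vehicle replicate 3 (adjusted p = 0.0528 to 0.121). With values scaled to total reads, this Ugt1a6b difference was -0.04. In 326E against chow, the difference of Ugt1a6b was -0.73 ± 0.15 (adjusted p = 0.00718). That call ended with values scaled to total reads, and also without the libraries with pancreatic transcripts.

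Ugt1a7c was higher on the diet at a low level. It had 0.832, 0.328 and 0.637 FPKM in 326E livers, 0.565, 1.92 and 2.15 FPKM in vehicle livers and 0.441, 0.220 and 0.194 FPKM in chow livers. Vehicle replicate 1 stood near the 326E libraries, but every vehicle library lay above every chow library. Ugt1a7c reached 0.5 FPKM in 2 libraries of 326E, 3 of vehicle and 0 of chow livers. It was thus tested only because of the group in which it was high. Its place among the 5 higher members, as the 1 higher Ugt1a gene, says little. The rise of 0.93 ± 0.25 (adjusted p = 0.0166) ended without vehicle replicate 2, vehicle replicate 3 or chow replicate 3 (adjusted p = 0.0505 to 0.0573). In 326E against vehicle, its difference was -0.62 ± 0.25 (adjusted p = 0.147). Ugt1a9, the remaining tested member, ranged from 10.6 to 30.1 FPKM over the 9 libraries and passed in no comparison, and Ugt1a2, Ugt1a8 and Ugt1a10 stayed at or below 0.642 FPKM.

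Ugt2 genes, which conjugate steroids, bile acids and many drugs, formed the largest Ugt group and were lower on CDAA-HFD with and without 326E. Their sum was 995 ± 150 FPKM in 326E, 905 ± 93 FPKM in vehicle and 2231 ± 488 FPKM in chow livers. In vehicle against chow, 0 of the 8 tested genes were higher and 7 lower, with a median of -1.14. In 326E against chow, 0 were higher and 5 lower, with a median of -1.10. Of all tested genes, 20.8% were called lower in vehicle against chow and 12.5% in 326E against chow. Leaving out the libraries with pancreatic transcripts gave 6 and 4 lower genes in these comparisons. In 326E against vehicle, none of the 8 was called, beside 11.5% of all tested genes. Their median was 0.08, with differences between -0.60 and 1.04.

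Ugt2b5 (ENSMUSG00000054630, chromosome 5, 87124960 to 87140318, minus strand) had the highest mean level of the Ugt genes. It stood at 310, 335 and 366 FPKM in 326E livers, 317, 243 and 288 FPKM in vehicle livers and 780, 507 and 715 FPKM in chow livers. No chow library came near the others, and 326E and vehicle libraries overlapped. Ugt2b5 fell by 1.22 ± 0.18 in vehicle against chow (adjusted p = 0.000811), and the difference with 326E against vehicle was 0.26 ± 0.18 (adjusted p = 0.393).

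Ugt2b1 (ENSMUSG00000035836, chromosome 5, 86916638 to 86926530, minus strand) was the most reduced of the abundant Ugt genes. Its levels were 133, 99.7 and 163 FPKM in 326E, 139, 131 and 124 FPKM in vehicle and 601, 342 and 644 FPKM in chow livers. Vehicle livers had 0.248 of the chow mean, and 326E livers 0.249. The difference was -1.95 ± 0.25 for vehicle against chow (adjusted p = 0.00038), -0.02 ± 0.25 for 326E against vehicle (adjusted p = 0.972) and -1.97 ± 0.25 for 326E against chow (adjusted p = 0.000828).

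Ugt2a3 (chromosome 5, 87324972 to 87337195) gave the same order of groups. It had 59.2, 76.6 and 104 FPKM in 326E livers, 76.8, 55.7 and 75.8 FPKM in vehicle livers and 202, 174 and 218 FPKM in chow livers. The fall of 1.51 ± 0.21 in vehicle against chow passed (adjusted p = 0.000564), and 326E livers lay 1.33 ± 0.21 below chow (adjusted p = 0.00223). For 326E against vehicle the difference was 0.18 ± 0.21 (adjusted p = 0.628).

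Ugt2b38 (ENSMUSG00000061906, chromosome 5, 87409942 to 87424203, minus strand) had the largest called diet fall of all members on the log2(FPKM+1) scale and is 97.1% identical to Ugt2b5 over the coding sequence. It had 32.4, 12.6 and 46.8 FPKM in 326E livers, 11.6, 18.3 and 9.27 FPKM in vehicle livers and 65.3, 40.3 and 113 FPKM in chow livers. Replicates differed widely, and 326E libraries overlapped both other groups. The fall in vehicle against chow was 2.32 ± 0.49 (adjusted p = 0.00526), and neither 1.04 ± 0.49 for 326E against vehicle (adjusted p = 0.208) nor -1.28 ± 0.49 for 326E against chow (adjusted p = 0.088) passed. With only vehicle replicate 2 kept, the fall of Ugt2b38 did not pass (adjusted p = 0.119). As ratios of group means, vehicle livers had 0.180 of the chow level for Ugt2b38, against 0.0796 for Sult2a7 and 0.0929 for Gstp3, both described below. The stretch of 60 coding bases in which the copies differ most, coding bases 1467 to 1526, holds 9 differences, in capitals.
Ugt2b5: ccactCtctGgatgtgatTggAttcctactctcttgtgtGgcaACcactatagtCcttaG
Ugt2b38: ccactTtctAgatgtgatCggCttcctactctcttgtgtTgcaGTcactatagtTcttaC
Only 75.3% of the 100-base windows of Ugt2b5 transcripts and 75.8% of those of Ugt2b38 occur in no other gene's transcripts, so some of their reads could be split between them.

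Of the other Ugt2 genes, Ugt2b36 (174 to 253 FPKM in 326E, 185 to 237 FPKM in vehicle and 367 to 519 FPKM in chow livers) and Ugt2b35 were called lower in vehicle and in 326E livers against chow. Ugt2b34 was lower in vehicle than in chow livers by -0.48 ± 0.16 (adjusted p = 0.0404), and this call ended without any 1 of 6 libraries, 326E replicate 2, vehicle replicates 1 to 3 and chow replicates 1 and 3 (adjusted p = 0.0607 to 0.132). Scaled to total reads, the difference of Ugt2b34 was -0.08. Ugt2b37, between 2.42 and 10.5 FPKM, passed in no comparison. With quantile normalization, Ugt2b36 lost its diet call (adjusted p = 0.103).

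The pair of Ugt3a genes on chromosome 15 fell on the diet. Their human counterparts use sugars other than glucuronic acid. Ugt3a2 (ENSMUSG00000049152, chromosome 15, 9335550 to 9370955) had 106, 122 and 166 FPKM in 326E livers, 136, 99.8 and 142 FPKM in vehicle livers and 211, 187 and 223 FPKM in chow livers. Ugt3a1 (chromosome 15, 9276888 to 9315032) had 21.9, 25.9 and 31.9 FPKM in 326E, 18.3, 12.8 and 24.2 FPKM in vehicle and 48.7, 42.9 and 54.2 FPKM in chow livers. For both genes all chow libraries were above all others. Against chow, vehicle livers differed by -0.72 ± 0.19 for Ugt3a2 (adjusted p = 0.0152) and by -1.39 ± 0.22 for Ugt3a1 (adjusted p = 0.00107). For 326E against vehicle, the differences were 0.05 ± 0.19 (adjusted p = 0.891) and 0.53 ± 0.22 (adjusted p = 0.15). The Ugt3a2 diet call ended without chow replicate 3 (adjusted p = 0.0503), and it also ended with values scaled to total reads (adjusted p = 0.0999). In 326E against chow both were called lower, by -0.67 ± 0.19 for Ugt3a2 (adjusted p = 0.0305) and -0.86 ± 0.22 for Ugt3a1 (adjusted p = 0.0195). These calls ended without any 1 of 326E replicates 1 and 2 and chow replicates 1 and 3 (adjusted p = 0.0828 to 0.104 for Ugt3a2, 0.0535 to 0.0719 for Ugt3a1), and neither passed without the libraries with pancreatic transcripts.

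**Figure D3:**
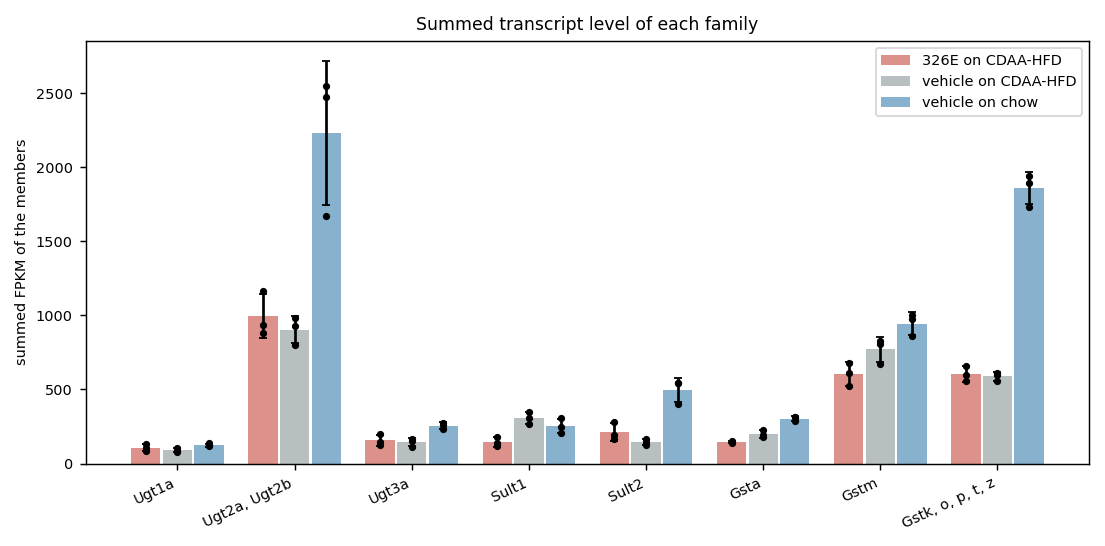
Summed FPKM of the members of each family group, with 326E, vehicle and chow livers side by side; bars are means, whiskers are SD and black points are the 3 libraries. The Sult1 bar of vehicle livers (308 FPKM) stands above that of chow livers (253 FPKM), while the Ugt2, Sult2 and remaining Gst bars of both diet groups stand far below chow. The remaining Gst bar of chow livers includes 602 FPKM of Gstp3 in chow replicate 1.

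Sult1 genes were called in both directions on the diet and in 1 direction with 326E. Their sum was 146 ± 33 FPKM in 326E livers, 308 ± 39 FPKM in vehicle livers and 253 ± 50 FPKM in chow livers (SD, n = 3 each). Of 5 tested genes, 2 were higher and 1 lower in vehicle against chow, where 41.6% of all tested genes were called. In 326E against vehicle, 0 were higher and 2 lower, where 11.5% of all tested genes were called. Against chow, 326E gave 0 higher and 2 lower, where 26.8% of all tested genes were called. In vehicle against chow, 1 was higher and 1 lower without the libraries with pancreatic transcripts.

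Sult1e1 (ENSMUSG00000029272, chromosome 5, 87575969 to 87591594, minus strand), the estrogen sulfotransferase, was detected at above 1 FPKM in vehicle livers alone. It had 0.365, 0.490 and 0.686 FPKM in 326E livers, 4.33, 5.15 and 7.43 FPKM in vehicle livers and 0.187, 0.808 and 0.660 FPKM in chow livers. In reads these were 8, 11 and 13 in 326E livers, 88, 130 and 159 in vehicle livers and 3, 13 and 9 in chow livers. The vehicle mean was 10.2 times the chow mean, and the 326E mean was 0.0911 of the vehicle mean. Sult1e1 rose by 2.09 ± 0.20 in vehicle against chow (adjusted p = 8.04e-05) and fell by 2.11 ± 0.20 with 326E against vehicle (adjusted p = 0.00114). Between 326E and chow livers the difference was -0.02 ± 0.20 (adjusted p = 0.959). Both calls held in all 21 alternatives.

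Sult1a1 (ENSMUSG00000030711, chromosome 7, 126672865 to 126676432, minus strand), which sulfates phenols, had the highest mean level of the Sult1 genes over all 9 libraries. In 326E livers Sult1d1 held the larger share, 52.4% of the Sult1 sum, against 41.1% for Sult1a1. It stood at 46.7, 58.6 and 74.6 FPKM in 326E livers, 169, 204 and 229 FPKM in vehicle livers and 110, 169 and 113 FPKM in chow livers. Every 326E library lay below every library of both other groups. It was 1.74 ± 0.22 lower in 326E than in vehicle livers (adjusted p = 0.00278) and 1.11 ± 0.22 lower in 326E than in chow livers (adjusted p = 0.00637). The diet difference was smaller, 0.63 ± 0.22 (adjusted p = 0.0439), and ended without any 1 of 326E replicate 2, vehicle replicates 2 and 3 and chow replicates 1 and 3 (adjusted p = 0.0645 to 0.138). Sult1a1 made up 16.7% of the Sult sum in 326E, 44.2% in vehicle and 17.4% in chow livers.

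Sult1b1 (chromosome 5, 87513339 to 87538195), which sulfates thyroid hormones, was lower on CDAA-HFD. Its levels were 5.44, 5.97 and 7.36 FPKM in 326E livers, 6.51, 6.87 and 9.73 FPKM in vehicle livers and 17.3, 12.8 and 16.1 FPKM in chow livers. The fall was 0.93 ± 0.17 in vehicle against chow (adjusted p = 0.00238) and 1.18 ± 0.17 in 326E against chow (adjusted p = 0.00139), with -0.25 ± 0.17 between 326E and vehicle (adjusted p = 0.367). Sult1d1, which lies between Sult1b1 and Sult1e1 and sulfates catecholamines in mice, ranged from 61.1 to 119 FPKM over the 9 libraries and passed in no comparison, and neither did Sult1c2, at 2.12 to 6.88 FPKM.

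Sult2 genes sulfate bile acids and hydroxysteroids. Only Sult2a8 (ENSMUSG00000030378, chromosome 7, 14410686 to 14446769, minus strand), the main bile acid sulfotransferase of mouse liver, was abundant. It had 162, 189 and 279 FPKM in 326E livers, 146, 124 and 165 FPKM in vehicle livers and 543, 396 and 540 FPKM in chow livers. All chow libraries lay above all others, and the 326E and vehicle libraries overlapped. Sult2a8 fell by 1.76 ± 0.22 in vehicle against chow (adjusted p = 0.000315) and was 1.25 ± 0.22 lower in 326E than in chow livers (adjusted p = 0.00367), and 0.51 ± 0.22 between 326E and vehicle did not pass (adjusted p = 0.172).

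Sult2a7, its neighbour on chromosome 7, rested on few reads. It had 0.221, 0.130 and 0.410 FPKM in 326E livers, 0.143, 0.0770 and 0.182 FPKM in vehicle livers and 0.727, 3.68 and 0.641 FPKM in chow livers, which is 3 to 8 reads in 326E, 2 to 4 reads in vehicle and 9 to 61 reads in chow livers. Chow replicate 2 alone held 61 reads. The 3 chow libraries were the only ones at 0.5 FPKM or more, so Sult2a7 was tested only because of the group in which it was high, and its place among the 26 lower members says little. The call of -1.06 ± 0.35 in vehicle against chow (adjusted p = 0.0346) ended without any 1 of the 3 vehicle libraries (adjusted p = 0.0693 to 0.0819), and with a pseudocount of 5 (adjusted p = 0.0728). The other 7 Sult2 genes, Sult2a1 to Sult2a6 and Sult2b1, were below the filter, at no more than 0.627 FPKM.

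Among the remaining Sult genes, only Sult5a1 was tested. It had 0.640, 0.651 and 0.326 FPKM in 326E livers, 1.36, 1.24 and 1.10 FPKM in vehicle livers and 3.33, 3.14 and 3.52 FPKM in chow livers, so that no 2 groups overlapped. Sult5a1 fell by 0.96 ± 0.11 in vehicle against chow (adjusted p = 0.000192), by 0.54 ± 0.11 in 326E against vehicle (adjusted p = 0.017) and by 1.50 ± 0.11 in 326E against chow (adjusted p = 7.64e-05). It was the only one of the 64 members called lower in all 3 comparisons. Sult6b2, singled out after its values were seen, had 3.04 FPKM (116 reads) in 326E replicate 1 and no read in the other 8 libraries. That library also held 178 FPKM of Prss2 and 2.52 FPKM of Vil1, a villin of gut epithelium that was at no more than 0.457 FPKM elsewhere. The part of other tissue in the Sult6b2 reads was not tested.

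The Gsta genes encode alpha class enzymes, which act on products of lipid peroxidation. Their sum was 145 ± 10 FPKM in 326E, 199 ± 26 FPKM in vehicle and 304 ± 16 FPKM in chow livers. In vehicle against chow, 1 of 4 was higher and 1 lower, where 41.6% of all tested genes were called. In 326E against vehicle, 0 were higher and 2 lower, where 11.5% of all tested genes were called. The 2 were 1 without the libraries with pancreatic transcripts. Every 326E library lay below every vehicle library for all 4 genes, as for 18.2% of all tested genes.

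Gsta3 (ENSMUSG00000025934, chromosome 1, 21240589 to 21265661), known in mice for conjugating the epoxide of aflatoxin B1, was the most abundant. It had 105, 106 and 122 FPKM in 326E livers, 129, 129 and 159 FPKM in vehicle livers and 259, 265 and 226 FPKM in chow livers. Groups did not overlap, and the fall of 0.84 ± 0.13 in vehicle against chow passed (adjusted p = 0.000879). In 326E livers the level was 1.16 ± 0.13 below chow (adjusted p = 0.0004), and -0.32 ± 0.13 against vehicle did not pass (adjusted p = 0.146).

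Gsta1 (ENSMUSG00000074183, chromosome 9, 78230656 to 78242684, plus strand) moved the other way at a lower level. It had 3.55, 2.14 and 2.06 FPKM in 326E livers, 8.18, 6.38 and 7.22 FPKM in vehicle livers and 1.38, 0.727 and 0.857 FPKM in chow livers. The 3 groups were fully separated, with 326E between the others. Gsta1 rose by 2.06 ± 0.18 in vehicle against chow (adjusted p = 4.7e-05), fell by 1.22 ± 0.18 in 326E against vehicle (adjusted p = 0.0053) and was 0.84 ± 0.18 higher in 326E than in chow livers (adjusted p = 0.00921). Without the libraries with pancreatic transcripts the last of these did not pass (adjusted p = 0.0684). Its neighbour Gsta2, with 8.37, 11.2 and 14.4 FPKM in 326E, 24.2, 14.5 and 22.6 FPKM in vehicle and 15.0, 15.0 and 20.1 FPKM in chow livers, passed in no comparison, and its 326E difference of -0.80 ± 0.23 had an adjusted p of 0.0554. The coding sequences of Gsta1 and Gsta2 are 97.5% identical. The 60 coding bases where they differ most, 449 to 508, hold 5 differences, in capitals.
Gsta1: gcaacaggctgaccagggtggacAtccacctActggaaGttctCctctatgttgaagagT
Gsta2: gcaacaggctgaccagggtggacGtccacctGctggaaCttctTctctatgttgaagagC
Of the 100-base windows of Gsta1, 19.4% occur in no other gene, against 71.6% for Gsta2, so the level of Gsta1 in particular is uncertain.

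Gsta4 (chromosome 9, 78182774 to 78209349), which conjugates 4-hydroxynonenal, was lower with 326E. It had 19.0, 23.6 and 16.5 FPKM in 326E livers, 29.0, 28.4 and 39.1 FPKM in vehicle livers and 36.2, 34.2 and 38.8 FPKM in chow livers. Vehicle and chow libraries overlapped, and the 326E libraries lay below both. The difference was -0.68 ± 0.16 for 326E against vehicle (adjusted p = 0.0266), -0.19 ± 0.16 for vehicle against chow (adjusted p = 0.379) and -0.87 ± 0.16 for 326E against chow (adjusted p = 0.00426). The call against vehicle ended without 326E replicate 1, 326E replicate 3 or vehicle replicate 3 (adjusted p = 0.0719 to 0.0863). Without the libraries with pancreatic transcripts, neither that call nor the one against chow passed (adjusted p = 0.0991 and 0.0537).

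All 7 Gstm genes, the mu class, lie together on chromosome 3, at 107895821 to 108044894, and neighbours moved in opposite directions. The first 60 coding bases of Gstm3, Gstm1, Gstm4 and Gstm7, the genes that differ most in pattern or level, show how unlike they are in sequence. Capitals mark the 19 positions at which the 4 genes are not all alike.
Gstm3: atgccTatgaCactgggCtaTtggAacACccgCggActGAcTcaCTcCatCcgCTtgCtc
Gstm1: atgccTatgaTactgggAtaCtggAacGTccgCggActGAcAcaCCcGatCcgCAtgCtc
Gstm4: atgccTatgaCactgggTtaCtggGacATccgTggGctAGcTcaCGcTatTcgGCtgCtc
Gstm7: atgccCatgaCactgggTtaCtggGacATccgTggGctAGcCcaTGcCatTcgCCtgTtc
Of the 100-base windows of these genes, 86.2% of Gstm3, 94.1% of Gstm1 and 100% of Gstm4 and Gstm7 occur in no other gene. In vehicle against chow, 1 Gstm gene was higher and 3 lower, where 41.6% of all tested genes were called. In 326E against vehicle, 2 were higher and 1 lower, where 11.5% of all tested genes were called. Without both libraries with pancreatic transcripts, these counts were 0 higher and 3 lower, and 1 higher and 0 lower. The Gstm sum was 605 ± 80 FPKM in 326E, 770 ± 84 FPKM in vehicle and 945 ± 76 FPKM in chow livers.

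Gstm1 (ENSMUSG00000058135, chromosome 3, 108012255 to 108017973, minus strand) made up 72.3% of the Gstm sum in 326E, 73.5% in vehicle and 78.2% in chow livers. It had 448, 490 and 374 FPKM in 326E livers, 469, 596 and 633 FPKM in vehicle livers and 804, 733 and 681 FPKM in chow livers. Neither the diet difference of -0.39 ± 0.16 (adjusted p = 0.0812) nor the 326E difference of -0.37 ± 0.16 (adjusted p = 0.178) passed. In 326E against chow, where the groups did not overlap, Gstm1 was lower by 0.76 ± 0.16 (adjusted p = 0.00896). This call was lost when values were scaled to total reads (adjusted p = 0.114) or quantile normalized (adjusted p = 0.669).

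Gstm3 (ENSMUSG00000004038, chromosome 3, 107963696 to 107969283, minus strand) was highest in vehicle livers. It had 44.4, 65.6 and 30.4 FPKM in 326E livers, 125, 122.6 and 92.6 FPKM in vehicle livers and 56.5, 72.2 and 51.9 FPKM in chow livers. Vehicle libraries lay above all others, and 326E and chow overlapped. Gstm3 fell by 1.31 ± 0.26 in 326E against vehicle (adjusted p = 0.0151) and rose by 0.90 ± 0.26 in vehicle against chow (adjusted p = 0.0207). The diet call ended without any 1 of vehicle replicates 1 and 2 and chow replicates 1 and 3 (adjusted p = 0.0601 to 0.0672). Without both libraries with pancreatic transcripts, the 326E difference of Gstm3 was again -1.31 but did not pass (adjusted p = 0.0622).

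Gstm4 (ENSMUSG00000027890, chromosome 3, 108040408 to 108044894, minus strand) had the reverse order. It had 32.9, 37.6 and 37.4 FPKM in 326E livers, 15.9, 17.0 and 17.1 FPKM in vehicle livers and 29.8, 34.4 and 32.0 FPKM in chow livers. The vehicle libraries were tightly grouped below all others. Gstm4 rose by 1.06 ± 0.09 in 326E against vehicle (adjusted p = 0.000858) and fell by 0.90 ± 0.09 in vehicle against chow (adjusted p = 0.000114), and the difference of 0.16 ± 0.09 between 326E and chow did not pass (adjusted p = 0.241). Both calls of Gstm4 held in all 21 alternatives.

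Gstm7 (chromosome 3, 107926334 to 107931817) was also low in vehicle livers, and Gstm6 was lower than chow in both groups on CDAA-HFD. Gstm7 had 29.9, 26.0 and 26.0 FPKM in 326E livers, 13.2, 14.5 and 18.7 FPKM in vehicle livers and 30.9, 48.0 and 29.6 FPKM in chow livers. It fell by 1.16 ± 0.19 in vehicle against chow (adjusted p = 0.00145) and rose by 0.79 ± 0.19 in 326E against vehicle (adjusted p = 0.0315). The rise of Gstm7 did not pass without any 1 of the 3 326E libraries or of vehicle replicates 1 and 2 (adjusted p = 0.0743 to 0.0906). Gstm6 had 29.7, 30.1 and 25.1 FPKM in 326E livers, 16.4, 21.2 and 27.4 FPKM in vehicle livers and 49.0, 46.0 and 40.5 FPKM in chow livers. Its fall of 1.05 ± 0.17 in vehicle against chow passed (adjusted p = 0.00131). The groups overlapped in 326E against vehicle, and 0.39 ± 0.17 did not pass (adjusted p = 0.173). In 326E against chow, the difference of Gstm6 was -0.66 ± 0.17 (adjusted p = 0.0213). That call ended in 6 of 21 alternatives, scaling to total reads among them. Gstm2 and Gstm5, at 17.1 to 35.2 FPKM and 5.79 to 7.49 FPKM, were called in no comparison.

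**Figure D4:**
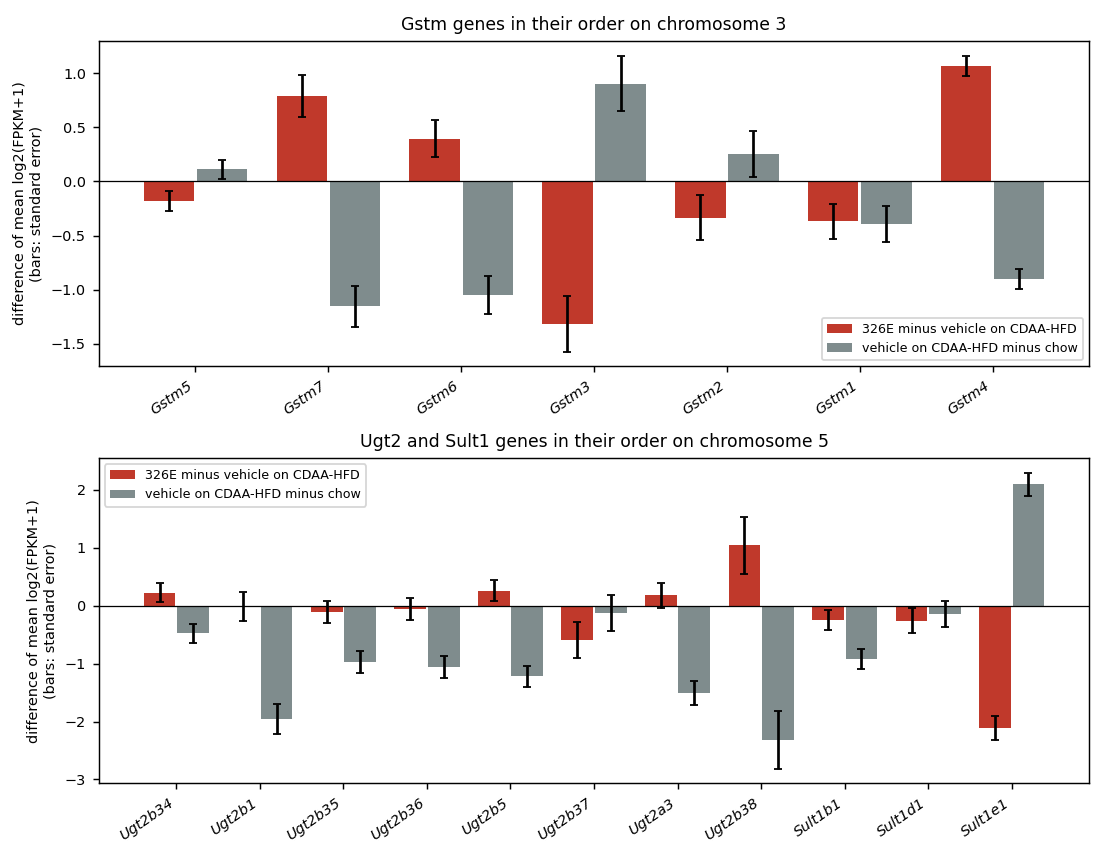
Differences of mean log2(FPKM+1) with standard errors for tested genes in their order along chromosome 3 (Gstm) and chromosome 5 (Ugt2 and Sult1), for 326E minus vehicle and vehicle minus chow; the horizontal spacing shows order, not distance. Gstm3 and Gstm4 point in opposite directions in both comparisons. At the end of the chromosome 5 cluster, Sult1e1 (2.09 in vehicle minus chow) is the only gene above 0 in that comparison with the deposited scaling.

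The tested Ugt2 genes and Sult1b1, Sult1d1 and Sult1e1 share a stretch of chromosome 5, from 86889767 to 87591594. Along it, with the deposited scaling, every tested Ugt2 gene had a negative difference in vehicle against chow, between -2.32 and -0.13. Sult1b1 and Sult1d1 did too. The differences of Ugt2b37 (-0.13 ± 0.31, adjusted p = 0.776) and Sult1d1 (-0.15 ± 0.22, adjusted p = 0.624) were not called. Scaling to total reads moved the median of all tested genes from -0.04 to 0.25, so signs this near 0 can depend on the scaling. Among these 11 genes, Sult1e1 was the only one called higher in vehicle than in chow livers. It was also the only one called in 326E against vehicle, where 11.5% of all tested genes were called.

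Of the remaining Gst genes, 0 of 9 tested were higher and 6 lower in vehicle against chow, where 41.6% of all tested genes were called. In 326E against vehicle, 2 were higher and 0 lower, where 11.5% of all tested genes were called. The 6 were 5 without the libraries with pancreatic transcripts. Their sum was 605 ± 54 FPKM in 326E, 589 ± 30 FPKM in vehicle and 1857 ± 108 FPKM in chow livers. The chow sum holds 602 FPKM of Gstp3 in chow replicate 1, against 17.9 and 15.5 FPKM in chow replicates 2 and 3. That value raises the chow mean, and the chow SD would be wider without Gstp3. Gstp1 (ENSMUSG00000060803, chromosome 19, 4035407 to 4037921, minus strand), the main pi class enzyme, was the most abundant of all 64 members in chow livers. It had 358, 255 and 255 FPKM in 326E livers, 348, 336 and 316 FPKM in vehicle livers and 959, 1287 and 1446 FPKM in chow livers. All chow libraries lay far above the rest, and vehicle livers had 0.271 of the chow mean. Gstp1 fell by 1.86 ± 0.19 in vehicle against chow (adjusted p = 0.00011) and was 2.08 ± 0.19 lower in 326E than in chow livers (adjusted p = 0.000168), while -0.22 ± 0.19 for 326E against vehicle did not pass (adjusted p = 0.487).

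The other pi genes did not follow Gstp1. Gstp2 had 1.19 to 6.10 FPKM in 326E, 2.43 to 8.02 FPKM in vehicle and 2.41 to 4.61 FPKM in chow livers and passed in no comparison. Gstp3, singled out after its values were seen, had 16.2, 18.0 and 11.3 FPKM in 326E livers, 16.7, 19.5 and 22.8 FPKM in vehicle livers and 602, 17.9 and 15.5 FPKM in chow livers. Chow replicate 1 held 5505 reads of Gstp3, against 121 to 281 reads in the other 8 libraries. Its diet difference was -1.48 ± 1.14 (adjusted p = 0.333) with this library and 0.22 ± 0.20 (adjusted p = 0.447) without it. Over the coding sequence Gstp1 and Gstp2 are 98.1% identical, and Gstp3 is 72.5% identical to Gstp1. The first 60 coding bases are shown because 6 of the 12 differences between Gstp1 and Gstp2 lie there, beside 11 between Gstp1 and Gstp3. Capitals mark the 13 positions that are not alike in all 3.
Gstp1: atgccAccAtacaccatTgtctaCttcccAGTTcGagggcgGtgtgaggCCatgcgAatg
Gstp2: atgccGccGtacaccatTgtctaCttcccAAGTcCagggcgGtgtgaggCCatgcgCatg
Gstp3: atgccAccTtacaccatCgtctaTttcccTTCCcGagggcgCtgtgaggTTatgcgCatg
Every 100-base window of Gstp3 (100%) occurs in no other gene, against 74.9% for Gstp1 and 53.1% for Gstp2, so Gstp2 is uncertain.

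Gstk1 (ENSMUSG00000029864, chromosome 6, 42245935 to 42250447, plus strand), the kappa class enzyme of mitochondria and peroxisomes, was low in vehicle livers. It had 69.4, 68.9 and 79.1 FPKM in 326E livers, 38.8, 36.1 and 45.4 FPKM in vehicle livers and 80.4, 93.4 and 85.4 FPKM in chow livers. The vehicle libraries stood below all others and the chow libraries above. Gstk1 rose by 0.84 ± 0.12 in 326E against vehicle (adjusted p = 0.00416) and fell by 1.09 ± 0.12 in vehicle against chow (adjusted p = 0.000133), with -0.25 ± 0.12 between 326E and chow (adjusted p = 0.146). Both calls of Gstk1 held in all 21 alternatives.

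Theta class genes lie together on chromosome 10 and differed among themselves. Gstt2 (chromosome 10, 75831114 to 75837424) had 19.9, 23.0 and 26.2 FPKM in 326E livers, 11.7, 10.7 and 16.1 FPKM in vehicle livers and 14.9, 12.7 and 15.6 FPKM in chow livers. It was highest with 326E, by 0.81 ± 0.16 against vehicle (adjusted p = 0.0161) and by 0.64 ± 0.16 against chow (adjusted p = 0.0185), and the call against vehicle ended without 326E replicate 2 or 3 (adjusted p = 0.0563 and 0.0572). The call against chow ended without 326E replicate 2, 326E replicate 3 or chow replicate 2 (adjusted p = 0.0569 to 0.0582). Gstt3 (chromosome 10, 75774115 to 75781414) had 1.36, 2.07 and 4.06 FPKM in 326E livers, 3.10, 1.88 and 3.01 FPKM in vehicle livers and 5.32, 10.6 and 11.8 FPKM in chow livers. It fell by 1.44 ± 0.33 in vehicle against chow (adjusted p = 0.00745), with -0.12 ± 0.33 for 326E against vehicle (adjusted p = 0.84).

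Gstt1, Gstz1, which acts in tyrosine breakdown, and Gsto1 were called lower both in vehicle and in 326E livers against chow, by 0.55 to 0.92 on the log2 scale. Gstz1 had 87.5 to 107 FPKM in 326E, 67.1 to 84.2 FPKM in vehicle and 136 to 148 FPKM in chow livers. Gstt1, at 70.7 to 80.8 FPKM in 326E, 55.8 to 85.8 FPKM in vehicle and 93.0 to 126 FPKM in chow livers, lost its diet call with values scaled to total reads (adjusted p = 0.113), and Gsto1 did too (adjusted p = 0.0668). The 326E against chow call of Gstt1 ended without any 1 of the 3 326E libraries, vehicle replicate 1 and chow replicates 2 and 3 (adjusted p = 0.0553 to 0.13). Gstz1 lost its 326E against chow call with values scaled to total reads, with quantile normalization and without the libraries with pancreatic transcripts, and Gsto1 lost its own without those libraries (adjusted p = 0.0654). Gsto2 was below the filter, at no more than 0.158 FPKM.

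**Figure D5:**
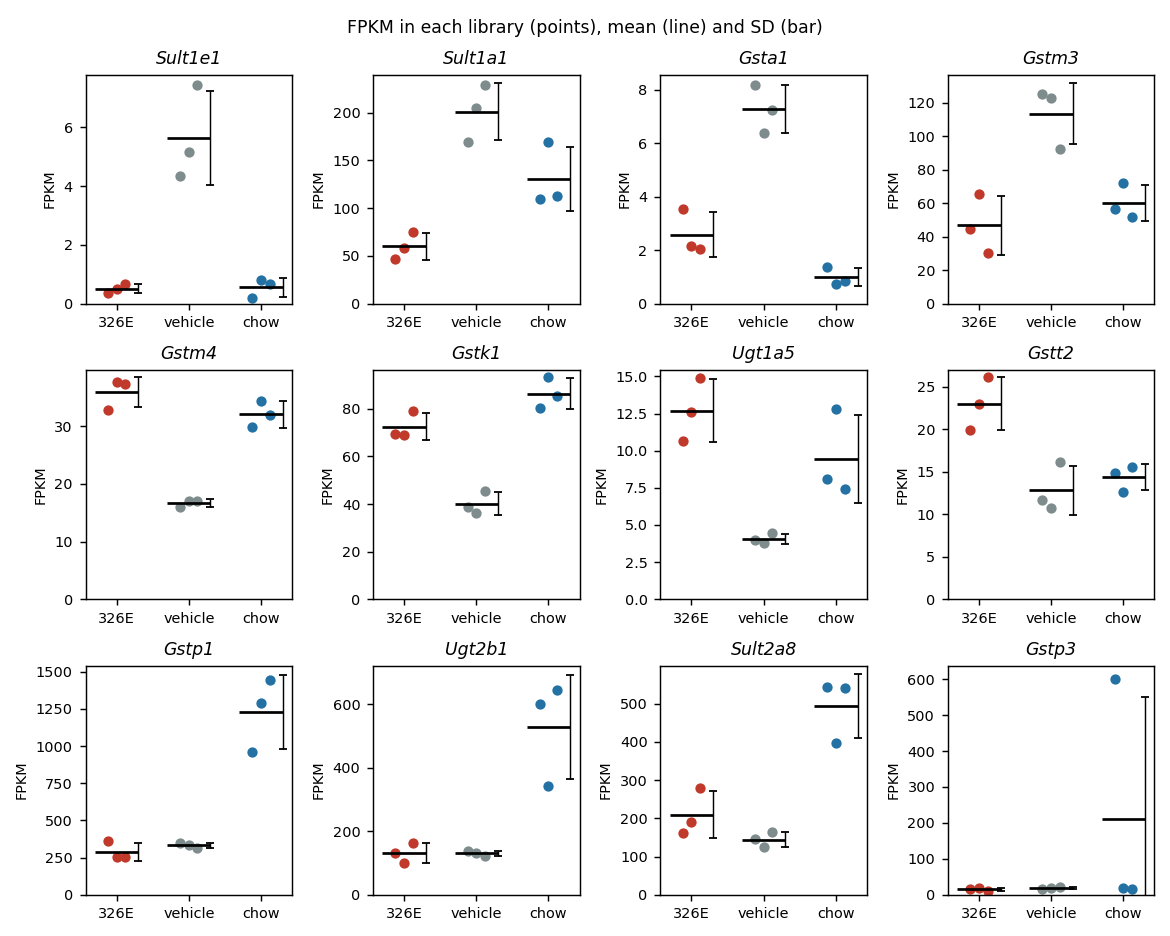
FPKM of 12 members in each library (points), with the group mean (line) and SD (bar, drawn down to 0 at most), in the order 326E, vehicle and chow. Sult1e1, Gsta1 and Gstm3 peak in vehicle livers, Gstm4, Gstk1 and Ugt1a5 dip there, Gstp1, Ugt2b1 and Sult2a8 are highest in chow, and the chow mean of Gstp3 rests on 1 library at 602 FPKM.

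Donors and cofactors of the 3 reactions were followed in lists of genes outside the members. Some genes stand in more than 1 of the lists below, so the counts of these lists overlap. Counts without the libraries with pancreatic transcripts follow in a clause where they moved. Of all tested genes, 41.6% were called in vehicle against chow and 11.5% in 326E against vehicle, or 33.7% and 5.86% without those libraries. The list and marker counts below stand beside these shares. Of 11 genes of UDP-glucuronic acid supply, with Gusb of glucuronide breakdown among them, 3 were higher and 5 lower in vehicle against chow (median -0.34). In 326E against vehicle, 0 were higher and 2 lower (median -0.13). Without those libraries, 3 were higher and 2 lower, and 0 higher and 1 lower. The strongest calls were of Gusb, the glucuronidase that splits glucuronides, at 13.6 ± 1.0 FPKM in 326E, 20.5 ± 0.8 FPKM in vehicle and 7.30 ± 0.58 FPKM in chow livers, and of Pgm1, the gene on chromosome 5 whose human counterpart is PGM2, at 3.69 ± 0.61, 6.82 ± 1.30 and 2.17 ± 0.29 FPKM in 326E, vehicle and chow livers. Both rose with the diet, Gusb by 1.38 ± 0.09 (adjusted p = 1.28e-05), and were lower with 326E, Gusb by -0.56 ± 0.09 (adjusted p = 0.00689) and Pgm1 by -0.73 ± 0.15 (adjusted p = 0.0174). The 326E call of Pgm1 ended without 326E replicate 2, vehicle replicate 1 or vehicle replicate 3. Pgm2, on chromosome 4, the counterpart of human PGM1 and singled out after its values were seen, had 64.0 ± 6.2 FPKM in 326E, 51.7 ± 8.7 FPKM in vehicle and 76.3 ± 6.4 FPKM in chow livers. It fell by 0.56 ± 0.14 in vehicle against chow (adjusted p = 0.0116), a call that ended with values scaled to total reads or quantile normalized.

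Of 14 genes of sulfate and PAPS supply, 0 were higher and 6 lower in vehicle against chow (median -0.44), and 3 were higher and 0 lower in 326E against vehicle (median 0.05), the 3 being 1 without the libraries with pancreatic transcripts. Suox, the sulfite oxidase that produces sulfate, averaged 49.4 ± 6.0 FPKM in 326E, 20.5 ± 1.7 FPKM in vehicle and 46.3 ± 3.9 FPKM in chow livers. It rose by 1.23 ± 0.12 with 326E against vehicle (adjusted p = 0.00114) after a fall of 1.14 ± 0.12 in vehicle against chow (adjusted p = 0.00011). Ethe1, a mitochondrial sulfur dioxygenase, had 14.0 ± 1.2, 9.67 ± 1.09 and 26.4 ± 4.8 FPKM in 326E, vehicle and chow livers, and Slc26a1, a sulfate transporter, 35.6 ± 4.3, 24.4 ± 5.1 and 48.9 ± 1.8 FPKM in 326E, vehicle and chow livers.

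Of 22 tested genes of glutathione supply and breakdown, 4 were higher and 7 lower in vehicle against chow (median -0.15), and 3 were higher and 2 lower in 326E against vehicle (median 0.04). These counts were 4 and 5, and 1 and 0, without the libraries with pancreatic transcripts. Cbs, which starts the route from homocysteine to cysteine, averaged 53.7 ± 7.1 FPKM in 326E, 29.2 ± 7.2 FPKM in vehicle and 124 ± 11 FPKM in chow livers. It fell by 2.08 ± 0.18 in vehicle against chow (adjusted p = 4.78e-05) and rose by 0.88 ± 0.18 in 326E against vehicle (adjusted p = 0.0183), a rise that did not pass without 326E replicate 1 or 3. Oplah, the 5-oxoprolinase of glutathione recycling, had 42.9 ± 4.0, 23.2 ± 1.5 and 25.2 ± 1.3 FPKM in 326E, vehicle and chow livers, and Nat8f1 had 43.1 ± 2.5, 55.1 ± 5.5 and 143 ± 16 FPKM in 326E, vehicle and chow livers.

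A list of conjugating enzymes outside the 64 members, with microsomal glutathione transferases, also held enzymes that do not conjugate, such as the hydrolase Ephx2. Its genes fell on the diet more often than not: of 19 tested, 3 were higher and 11 lower (median -0.68). In 326E against vehicle, 5 were higher and 2 lower (median 0.23). Without the libraries with pancreatic transcripts, 2 were higher and 10 lower on the diet, and 3 higher and 1 lower with 326E. Ephx2, the soluble epoxide hydrolase, averaged 357 ± 37 FPKM in 326E, 163 ± 4 FPKM in vehicle and 306 ± 44 FPKM in chow livers, a rise of 1.12 ± 0.14 with 326E against vehicle (adjusted p = 0.00249). Nnmt, which methylates nicotinamide, had 28.1 ± 13.4, 83.1 ± 16.7 and 118 ± 39 FPKM in 326E, vehicle and chow livers, a fall of 1.62 ± 0.36 with 326E against vehicle (adjusted p = 0.0225) that ended without any 1 of 326E replicates 1 and 2 and vehicle replicates 1 and 3. Hpgds, a prostaglandin D synthase of the sigma glutathione transferase class, had 1.18 ± 0.22, 2.76 ± 0.44 and 0.235 ± 0.121 FPKM in 326E, vehicle and chow livers, and Inmt 194 ± 83, 102 ± 39 and 286 ± 59 FPKM in 326E, vehicle and chow livers.

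Transporters that move conjugates were split. Of 12, 4 were higher and 5 lower in vehicle against chow (median -0.20). In 326E against vehicle, 2 were higher and 3 lower (median 0.11). These counts were 4 and 4, and 1 and 2, without the libraries with pancreatic transcripts. Slco1a1, an organic anion uptake carrier, averaged 81.2 ± 11.1 FPKM in 326E, 36.7 ± 12.4 FPKM in vehicle and 158 ± 52 FPKM in chow livers. Slc22a7, another anion carrier, fell in both comparisons and had 1.85 ± 0.46, 6.54 ± 0.39 and 27.4 ± 4.7 FPKM in 326E, vehicle and chow livers.

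Regulators of these enzymes were measured as transcripts only. Of 17 tested, 2 were higher and 6 lower in vehicle against chow (median -0.37), where 41.6% of all tested genes were called. In 326E against vehicle, 0 were higher and 3 lower (median 0.05), where 11.5% of all tested genes were called. The 3 were 1 without the libraries with pancreatic transcripts. Nfe2l2, which encodes NRF2, an activator of many Gst genes, averaged 24.1 ± 4.0 FPKM in 326E, 38.0 ± 5.8 FPKM in vehicle and 16.3 ± 3.3 FPKM in chow livers, and rose by 1.18 ± 0.18 in vehicle against chow (adjusted p = 0.000817). Hnf4a, a factor of hepatocyte identity, had 93.5 ± 8.4, 84.3 ± 2.4 and 150 ± 29 FPKM in 326E, vehicle and chow livers and fell by 0.81 ± 0.14 in vehicle against chow (adjusted p = 0.00211). Esr1, the estrogen receptor, had 0.528 ± 0.291, 2.67 ± 0.77 and 1.62 ± 0.44 FPKM in 326E, vehicle and chow livers and fell by 1.26 ± 0.19 in 326E against vehicle (adjusted p = 0.00582). Ppargc1a, a coactivator, fell by 0.64 ± 0.18 in the same comparison (adjusted p = 0.049), a call that ended in 14 of 21 alternatives.

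A list of NRF2 targets shared Slc7a11 and Txnrd1 with the glutathione list. Of its 19 tested genes, 9 were higher and 3 lower in vehicle against chow (median 0.38). In 326E against vehicle, 1 was higher and 5 lower (median -0.31). The lower counts became 2 and 3 without the libraries with pancreatic transcripts. Hmox1, which breaks down heme, averaged 29.8 ± 7.2 FPKM in 326E, 59.4 ± 5.8 FPKM in vehicle and 10.4 ± 1.4 FPKM in chow livers, and Srxn1, a sulfiredoxin, 33.2 ± 2.1, 72.9 ± 28.2 and 14.03 ± 1.73 FPKM in 326E, vehicle and chow livers. Me1, the NADPH-producing malic enzyme and also a gene of fatty acid synthesis, was the 1 that rose with 326E, by 2.90 ± 0.15 (adjusted p = 3.63e-05), and Cbr3 fell by 1.17 ± 0.20 (adjusted p = 0.00897).

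Several Sult, Ugt and Gst genes are known to differ between male and female mice, so lists of sex-biased liver genes were set beside them. Of 14 male-biased genes, 0 were higher and 12 lower in vehicle against chow (median -2.31), and 9 were higher and 1 lower in 326E against vehicle (median 1.23), the 9 being 7 without the libraries with pancreatic transcripts. Hsd3b5, a steroid dehydrogenase, averaged 27.6 ± 12.3 FPKM in 326E, 2.07 ± 3.13 FPKM in vehicle and 186 ± 56 FPKM in chow livers, and Cyp4a12a, a fatty acid hydroxylase, 278 ± 11, 24.4 ± 17.9 and 150 ± 82 FPKM in 326E, vehicle and chow livers. Elovl3, a fatty acid elongase, had 58.9 ± 17.9, 5.26 ± 1.72 and 171 ± 35 FPKM in 326E, vehicle and chow livers. Only 6 of 14 female-biased genes were tested. Of these, 3 were higher and 1 lower in vehicle against chow (median 2.02). In 326E against vehicle, 2 were higher and 0 lower (median 0.52). The 3 became 2 without the libraries with pancreatic transcripts. Cyp2a4, a steroid hydroxylase, had 57.5 ± 31.6, 8.43 ± 5.04 and 0.361 ± 0.285 FPKM in 326E, vehicle and chow livers, and Acot3, a peroxisomal thioesterase, 23.0 ± 9.4, 6.54 ± 0.79 and 0.716 ± 0.731 FPKM in 326E, vehicle and chow livers.

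Of 12 pericentral hepatocyte genes, which mark the zone where many conjugating enzymes are made, 2 were higher and 4 lower in vehicle against chow (median -0.27). In 326E against vehicle, 0 were higher and 4 lower, with a median of -0.02, as over all tested genes. These counts were 1 and 3, and 0 and 2, without the libraries with pancreatic transcripts. Cyp2c29 averaged 28.9 ± 24.1 FPKM in 326E, 6.96 ± 4.10 FPKM in vehicle and 501 ± 47 FPKM in chow livers, and Cyp1a2 229.6 ± 28.5, 187 ± 13 and 486 ± 84 FPKM in 326E, vehicle and chow livers. Rhbg, an ammonia carrier, fell by 1.31 ± 0.15 and Slc1a2, a glutamate carrier, by 0.92 ± 0.15 in 326E against vehicle (adjusted p = 0.00204 and 0.0064).

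Markers of liver cell types also differed between the groups. Of 9 hepatocyte markers, 0 were higher and 4 lower in vehicle against chow, and none was called in 326E against vehicle. Of 10 macrophage and Kupffer cell markers, 9 were higher in vehicle against chow and 5 lower in 326E against vehicle, and their summed level was 568 to 768 FPKM in 326E, 862 to 1219 FPKM in vehicle and 211 to 247 FPKM in chow livers. Of 9 stellate cell and fibroblast markers, 7 were higher in vehicle against chow and 4 lower in 326E against vehicle, with sums of 152 to 184, 233 to 337 and 51.2 to 69.2 FPKM in 326E, vehicle and chow livers. Of 6 tested cholangiocyte markers, 4 were higher in vehicle against chow and none was called in 326E against vehicle, with sums of 90.7 to 147, 121 to 333 and 31.6 to 50.4 FPKM in 326E, vehicle and chow livers. Endothelial markers gave 3 higher and 1 lower of 7 in vehicle against chow, lymphocyte markers 1 higher of 4 and neutrophil markers 2 higher of 3, and none of these was called in 326E against vehicle. Of 13 markers of kidney, gut, fat, pancreas and muscle, 3 were tested, and Fabp2, a fatty acid binding protein of gut, was the 1 called higher in vehicle against chow and in 326E against vehicle. Leaving out the libraries with pancreatic transcripts, which ended both calls of Fabp2, left 3 cholangiocyte, 2 endothelial, 0 lymphocyte and 1 neutrophil markers higher in vehicle against chow, and 1 stellate cell marker lower in 326E against vehicle. The part of the cell mix in the differences of the members was not tested.

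Promoters were searched for 3 short motifs, on both strands, in RefSeq sequence of GRCm38.p6 from 250 bases before to 50 after each gene start, which held 67 promoters of 56 members. The antioxidant response element core TGACNNNGC was found in promoters of 3 members (Gsta3, Gstm5 and Gstm7), where 12.4% of all 32851 promoters hold it. The core of the aryl hydrocarbon receptor's element, GCGTG, was found in 13 of the 67 promoters, those of 11 members, against 32.4% of all promoters. The PPAR element AGGNCANAGGNCA was found in 0, against 0.381%. Of the 3 members with the antioxidant core, Gsta3 and Gstm7 were called lower in vehicle against chow and Gstm5 was not called. In 326E against vehicle, Gstm7 rose, a call that did not hold in every alternative, and Gsta3 and Gstm5 were not called.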

How the data were processed

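Poly(A) RNA of mouse liver was sequenced as 9 libraries, 3 per group. Reads were aligned with HISAT2 to mm10 and counted with featureCounts, per the submitters' processing notes; versions, annotation release and strand setting are not given in the sources used here. Library titles begin with MCD while the protocol in the labels says CDAA-HFD or chow, and the protocol was followed. The authors deposited FPKM per gene with a gene length. Multiplying FPKM by length returned whole reads (tolerance 0.01) for 100% of values, and the implied library sizes equalled median-of-ratios sizes. Low values rest on few reads and are the least precise.

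The test was limma 3.58.1 (R 4.3.3), run on log2(FPKM+1) of the 13737 genes that reached 0.5 FPKM in 3 or more libraries. One fit of all 9 libraries, with its prior variance following the mean level, left 6 residual degrees of freedom, and the Benjamini-Hochberg adjustment was made per comparison over all tested genes. The method was also run on simulated reads, with the same relative spread for all genes and only large changes planted. That setting is simpler than these data, so the run does not show how the method fares on them. Python 3.11.15, pandas 2.3.3 and matplotlib 3.10.9 made tables and plots. All 64 members are in GENCODE vM21, 60 with the same coordinates; sequences came from its transcripts.

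The members and gene lists were chosen with earlier results of these data known. Named members are, per family group, the highest by mean FPKM and up to 3 called rises and 3 called falls in vehicle against chow and 326E against vehicle where a group mean reaches 1 FPKM; from each pathway list, the 2 largest called changes in those comparisons are the ones named. Results were recomputed with pseudocounts of 0.1 or 5, without the filter or with a minimum mean of 1 FPKM, after scaling to total reads or quantile normalization, without the variance trend, on only the 6 libraries of a comparison, with voom on whole reads, with the replicate number as a block, and with each library left out in turn. Keeping only vehicle replicate 2 of its group, and leaving out both libraries with pancreatic transcripts, were added after seeing the data. On the second principal component of the tested genes (15.3% of the variance), vehicle replicate 2 stood at -5.28, and replicates 1 and 3 at -21.8 and -22.0. The 326E libraries stood at 21.7 to 28.4 and the chow libraries at -15.8 to -4.41. Reported values use all 9 libraries.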

Additional observations from a re-analysis of the deposited data

How the results depend on the processing

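No member named here reversed its direction in a called comparison. Of 31 calls in vehicle against chow, 19 held in every alternative, as did 4 of 12 in 326E against vehicle and 9 of 23 in 326E against chow. Vehicle against chow gave 5721 called genes, with 5 members higher and 26 lower; 8 were higher with scaling to total reads, 3 (with 3596 genes called) with only vehicle replicate 2 kept and 2 without the libraries with pancreatic transcripts. Leaving out 1 library gave 4697 to 5669 genes, 2 to 6 members higher and 23 to 26 lower, with 2 higher without vehicle replicate 2 or chow replicate 3, and 3 higher without vehicle replicate 3 or chow replicate 1. 326E against vehicle gave 1574 genes, 6 members higher and 6 lower. It gave 1030 genes without a filter, 805 without the libraries with pancreatic transcripts, and 322 genes with 3 members higher and 2 lower with only vehicle replicate 2 kept, a lone library assumed to vary like the other groups. Leaving out 1 library gave 659 to 1623 genes (961, 659 and 724 without 326E replicate 1, 2 and 3, and 879 without vehicle replicate 3), 3 to 6 members higher (3 without 326E replicate 2 or 3) and 5 to 7 lower. 326E against chow gave 3688 genes, 2 members higher and 21 lower; scaling to total reads gave 4 higher, and leaving out the libraries with pancreatic transcripts 1770 genes, 1 higher and 10 lower. Leaving out 1 library gave 2401 to 3717 genes (2401 without 326E replicate 2), 1 to 2 members higher (1 without 326E replicate 2 or 3) and 18 to 21 lower. The cause of these moves was not tested, and fits with libraries left out also rest on fewer libraries. With the replicate number as a block, 326E against vehicle gave 1037 genes. As deviations from their group means, same-numbered libraries of different groups correlated at -0.244 to 0.0236. Such deviations cancel within a group of 3, so this check cannot decide whether the numbers pair the samples.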
